A study of Mus musculus with 7 samples.

Results

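The Gimap genes (GTPases of immunity-associated proteins) encode small GTP-binding proteins of lymphocytes. The value table held 5 Gimap probe sets, 1 each for Gimap1, Gimap4, Gimap6, Gimap8 and Gimap9. The table held 16255 non-control probe sets left after the submitters' filters, and shares of all probe sets below are over these. The 5 Gimap probe sets were chosen by name, as those that the platform annotation pairs with exactly 1 gene symbol beginning with Gimap. The RefSeq gene table holds 8 Gimap genes, all side by side on mouse chromosome 6, and Gimap3, Gimap5 and Gimap7 were not analysed here. The family was picked with the ABCG2 against mock differences of Gimap4 and Gimap6 known, so that comparison is given below as a description without a test.

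Bone marrow cells were taken from mouse recipients of bone marrow transplants and profiled on 7 Affymetrix Mouse430_2 arrays. Whole, unsorted marrow came from recipients of cells with a mock control transgene (3 arrays) and from recipients of cells with an ABCG2 transgene (2 arrays). Marrow of the EZH2-Mt transgene, from a recipient or recipients called MDS-like (MDS, myelodysplastic syndrome), was sorted on GFP, green fluorescent protein, into a GFP-positive fraction (1 array) and a GFP-negative fraction (1 array), and the descriptions call each fraction a control. The ABCG2 titles carry a series tag that the other titles lack, so if it marks a batch, batch and ABCG2 cannot be told apart. Mice are not numbered, so both fractions may come from the same mouse, sorting cannot be told apart from the EZH2-Mt transgene, and any p-value measures only the spread between these arrays. Host strain, age, vector promoter and the share of cells carrying a transgene are not given in the labels.

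Gimap proteins share a GTP-binding domain (the AIG1 domain) related to that of septins, and many are tethered to intracellular membranes. In mice the family is best known for keeping mature T cells, B cells and natural killer (NK) cells alive, and loss of some of its members lowers lymphocyte numbers. The genes lie in a tight cluster, and their transcripts are abundant in lymphocytes and scarce in neutrophils, monocytes and red cell precursors.

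Each value below is a normalised signal on a log scale, taken as log2, with the median of the probe set over the 7 arrays set to 0. A value therefore shows how far an array lies from the middle array for that gene, and levels of different Gimap genes cannot be compared. Every probe set kept had to be called Present or Marginal on 100% of the arrays, so all 5 genes were detected in every sample, and a low value is a low detected signal.

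The promoters of 3 members are shown because they span the patterns described below: Gimap4 and Gimap6 had the largest ABCG2 against mock differences, and Gimap1 spanned the narrowest range over the 7 arrays (4.34 log2). The sequences are from RefSeq (GRCm38.p6), run 5′ to 3′ from 250 bases before the transcript start to 50 bases after it, and have in capitals each match to a Runx motif (TGTGGT) or an Ets motif (AGGAAG) on either strand.
Gimap4, chr6:48684328-48684627, plus strand: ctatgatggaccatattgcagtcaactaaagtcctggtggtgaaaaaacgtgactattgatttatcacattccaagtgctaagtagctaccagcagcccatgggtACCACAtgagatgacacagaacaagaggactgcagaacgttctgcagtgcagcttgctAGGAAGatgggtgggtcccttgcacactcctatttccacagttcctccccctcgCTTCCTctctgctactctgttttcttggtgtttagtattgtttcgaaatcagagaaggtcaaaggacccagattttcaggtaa
Gimap6, chr6:48708195-48708494, minus strand: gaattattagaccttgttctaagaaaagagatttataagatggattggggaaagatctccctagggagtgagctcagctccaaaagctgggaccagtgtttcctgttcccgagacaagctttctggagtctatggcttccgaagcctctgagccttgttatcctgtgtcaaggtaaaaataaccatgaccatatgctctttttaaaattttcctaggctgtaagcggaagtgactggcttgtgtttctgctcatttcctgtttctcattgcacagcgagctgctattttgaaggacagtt
Gimap1, chr6:48738797-48739096, plus strand: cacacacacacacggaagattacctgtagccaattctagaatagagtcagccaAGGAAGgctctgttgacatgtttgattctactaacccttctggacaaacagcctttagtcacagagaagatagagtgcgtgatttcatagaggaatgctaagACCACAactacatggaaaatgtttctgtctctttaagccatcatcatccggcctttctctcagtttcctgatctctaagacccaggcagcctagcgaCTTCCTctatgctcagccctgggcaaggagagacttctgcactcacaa

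Runx and Ets proteins are transcription factors of blood cells. The Gimap4 window held 1 Runx match and 2 Ets matches, and the Gimap1 window likewise held 1 and 2. The Gimap6 window held 0 matches to either set of letters. Only these exact letters were searched, so other forms of the Runx or Ets motif were not counted in any window. Over the 6 windows of the 5 genes (Gimap8 has 2 starts), the Ets letters were found in 4 and the Runx letters in 2, beside 35.4% and 16.8% of 32817 RefSeq promoter windows of 300 bases. The other motifs were searched on both strands in the same way. The Ikaros letters TGGGAA and the Gata letters AGATAA were in 0 of the 6 windows, against 25.6% and 11.2% of all windows. The E protein letters CAGGTG were in the Gimap9 window alone (20.2% of all windows), and the TATA box letters TATAAA in the Gimap6 window alone (13.6%). These matches are descriptions of the letters in the windows.

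Signals of all 5 Gimap genes were highest in ABCG2 marrow and lowest on mock replicate 1. Gimap4, a GTPase of T cells linked to their death programme, read -4.45, -0.04 and -0.35 on mock replicates 1, 2 and 3, and 2.97 and 3.30 on the ABCG2 arrays. Its EZH2-Mt values were 1.48 in GFP-negative and 0 in GFP-positive cells. Both ABCG2 arrays lay above every other array, and mock replicate 1 lay far below the rest. Gimap4 spanned 7.75 log2 over the 7 arrays, the widest range of the family.

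Gimap6, which takes part in autophagy, read -2.17, 0 and -0.50 on the mock arrays and 3.77 and 3.78 on the ABCG2 arrays. It read 1.06 in GFP-negative and -0.52 in GFP-positive EZH2-Mt cells. The ABCG2 arrays lay within 0.01 of each other, and the GFP-positive value lay inside the mock range. Gimap8, a large family member implicated in B cell survival, read -2.83, -0.04 and 0 on the mock arrays and 2.45 and 2.85 on the ABCG2 arrays. Its EZH2-Mt values were 1.29 (GFP-negative) and -0.02 (GFP-positive). As for Gimap4, mock replicates 2 and 3 and the GFP-positive array sat together near 0.

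Gimap1, a membrane-bound member required for mature T and B cells, read -0.81, -0.33 and 0 on the mock arrays and 3.21 and 3.53 on the ABCG2 arrays. It read 0.54 in GFP-negative and -0.35 in GFP-positive cells. Gimap9 read -1.19, -0.49 and -0.46 on the mock arrays, 2.65 and 3.33 on the ABCG2 arrays, 0.63 in GFP-negative cells and 0 in GFP-positive cells. In these 2 genes mock replicate 1 was again the lowest array, but by a much smaller margin than in Gimap4, Gimap6 and Gimap8.

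**Figure D1:**
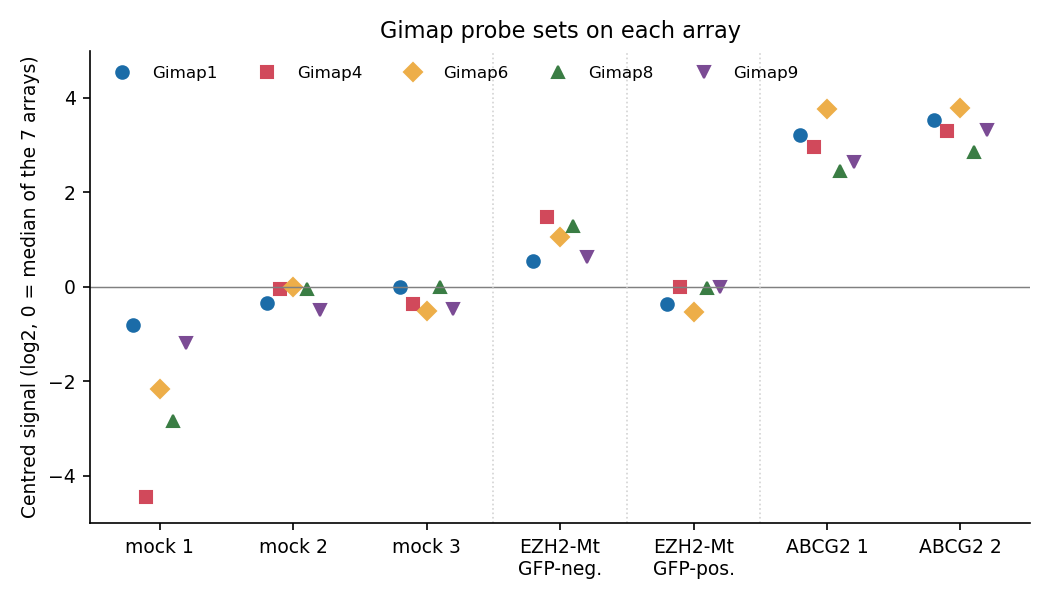
Centred signal (log2, 0 is the median of the 7 arrays) of the 5 Gimap probe sets on each array, 1 point per gene and array. All 5 genes lie from 2.45 to 3.78 on the ABCG2 arrays, from 0.54 to 1.48 on the GFP-negative array, and from -4.45 to -0.81 on mock replicate 1.

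The order of the groups was thus the same for each gene at its ends: the ABCG2 arrays on top, then the GFP-negative fraction, then mock replicates 2 and 3 with the GFP-positive fraction, and mock replicate 1 last. This order was read from these same 5 genes, with the ABCG2 differences of Gimap4 and Gimap6 known. Its count in them is thus only descriptive. With mock replicate 1 last, the order held in 5 of 5 Gimap probe sets and in 2.1% of all probe sets. Without the condition on mock replicate 1 it held in 6.69% of all probe sets. Both ABCG2 arrays exceeded the 5 others in 5 of 5 genes and in 31.3% of all probe sets. The GFP-positive fraction, mock replicate 2 and mock replicate 3 were neighbours without a fixed order, within -0.52 to 0 on all 5 genes. Between the ABCG2 arrays and the GFP-negative array the smallest gap was 1.16 (Gimap8) and the widest 2.71 (Gimap6). ABCG2 replicate 2 exceeded replicate 1 in 5 of 5 genes, against 55.7% of all probe sets, by 0.01 to 0.68.

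In whole marrow of ABCG2 recipients, mean Gimap signals exceeded those of mock marrow by 12.2-fold to 26.9-fold. The difference, ABCG2 mean minus mock mean in log2 with limma's standard error (n = 2 and 3 arrays), was 4.75 ± 1.26 for Gimap4 and 4.66 ± 0.59 for Gimap6. It was 3.75 ± 0.26 for Gimap1, 3.70 ± 0.30 for Gimap9 and 3.61 ± 0.84 for Gimap8. The mock spread behind these errors was uneven, with a mock SD (n = 3) of 2.46 for Gimap4, 1.62 for Gimap8 and 1.13 for Gimap6, beside 0.41 for both Gimap1 and Gimap9.

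Both ABCG2 arrays lay above all mock arrays in 5 of 5 genes, as they did in 40.6% of all probe sets. A difference of 3 log2 or more, which all 5 genes had, was met by 0.738% of probe sets, and by limma 31.5% of all probe sets were called higher and 25.3% lower at an adjusted p under 0.05. With quantile normalization those calls were 2109 higher and 2325 lower, in place of 5122 and 4112. Quantile normalization was run on the centred values and gives every array the same spread. Before it, the SD over probe sets was 1.06 and 1.13 on the ABCG2 arrays and 0.33 to 0.42 on the mock arrays. It thus narrows the ABCG2 values by construction, and whether a call lost under it reflects that narrowing was not tested. The ABCG2 against mock differences chose the family, so nothing is read from its place among them. The smallest distance from the lower ABCG2 array to the highest mock array was 2.45 (Gimap8) and the largest 3.77 (Gimap6).

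Mock replicate 1 carried part of these differences. Without it, Gimap4 differed by 3.33 ± 0.20, Gimap6 by 4.03 ± 0.21, Gimap1 by 3.54 ± 0.21, Gimap9 by 3.46 ± 0.26 and Gimap8 by 2.67 ± 0.19. The corresponding folds were 6.37 (Gimap8) to 16.3 (Gimap6), and Gimap4 went from 26.9-fold to 10.1-fold. The order of the genes changed too, with Gimap6 first in place of Gimap4.

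In the sorted EZH2-Mt marrow, GFP-negative cells exceeded the highest mock array in 5 of 5 Gimap genes, beside 39.1% of all probe sets. Each fraction is 1 array, so these differences have no replicate check and no test. GFP-negative minus the mock mean was 3.09 for Gimap4 (8.54-fold), 2.25 for Gimap8 (4.74-fold), 1.95 for Gimap6 (3.85-fold), 1.34 for Gimap9 (2.53-fold) and 0.92 for Gimap1 (1.90-fold). A difference of 1 log2 or more was seen in 4 of the 5 genes and in 4.1% of all probe sets. The ABCG2 and EZH2-Mt comparisons share the mock arrays, so mock replicate 1 enters each.

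Set against mock replicates 2 and 3 alone, GFP-negative cells were higher by 1.68 for Gimap4 (3.20-fold) and by 1.31 for both Gimap8 and Gimap6 (2.48-fold each). Gimap9 was higher by 1.10 and Gimap1 by 0.71. Again 4 of the 5 differed by 1 log2 or more, beside 4.36% of all probe sets. For Gimap4 and Gimap8 the difference thus shrank by over 1.5 times without mock replicate 1, and all 5 stayed above 0. The gap from the highest mock array to the GFP-negative array ran from 0.54 (Gimap1) to 1.52 (Gimap4).

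GFP-positive EZH2-Mt cells lay nearer to mock marrow than GFP-negative cells did. They exceeded all mock arrays in 2 of the 5 genes, Gimap4 (0 against a highest mock value of -0.04) and Gimap9, beside 43.4% of all probe sets, and those were also the 2 genes in which both fractions did so (28.2% of all probe sets). The difference from the mock mean was 1.61 for Gimap4, 0.94 for Gimap8, 0.71 for Gimap9, 0.37 for Gimap6 and 0.03 for Gimap1, with 1 of the 5 at 1 log2 or more, beside 7.97% of all probe sets. Without mock replicate 1 it was 0.20, 0.003, 0.47, -0.27 and -0.19, so its sign turned for Gimap6 and Gimap1.

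Within the EZH2-Mt marrow, GFP-positive cells had less Gimap signal than GFP-negative cells in 5 of 5 genes, against 47.8% of all probe sets. The GFP-negative value lay above both the GFP-positive value and all mock values in 5 of 5, against 20.4%. The differences were -1.58 for Gimap6, -1.48 for Gimap4, -1.31 for Gimap8, -0.90 for Gimap1 and -0.63 for Gimap9, or 1.54-fold to 2.99-fold less. A drop of 1 log2 or more was present in 3 of the 5, and in 2.04% of all probe sets. The same size of difference in either direction was met by 834 probe sets between the fractions, and by 109 to 410 between pairs of mock arrays. Spike-in control RNAs were not level between the fractions: the median of the 12 poly-A control probe sets was 1.77 on the GFP-negative and 3.50 on the GFP-positive array, between -0.03 and 0.01 on the mock arrays, and -1.09 and -1.57 on the ABCG2 arrays. Their part in the Gimap differences was not tested.

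**Figure D2:**
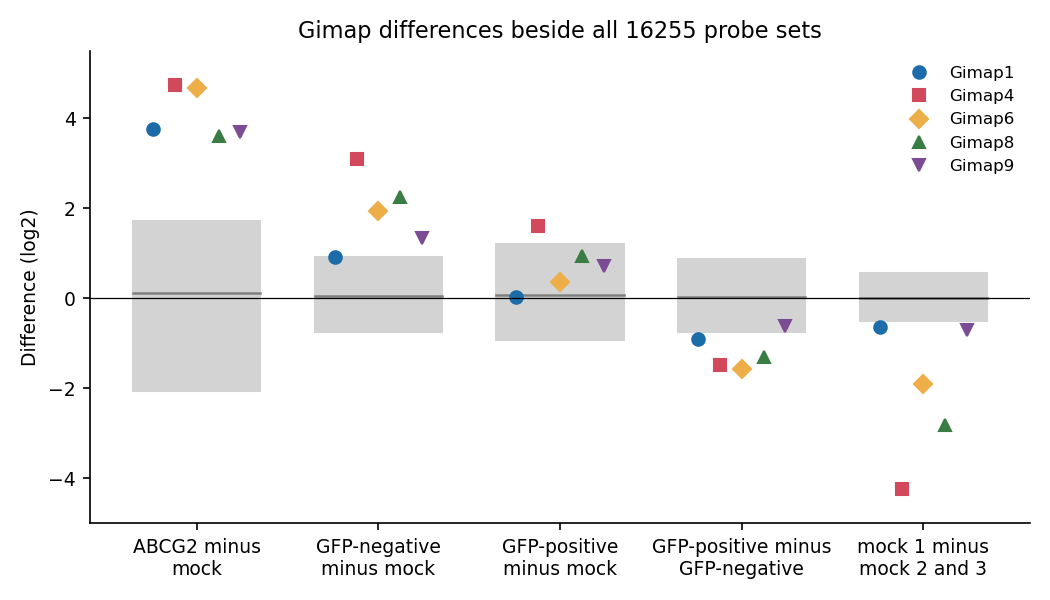
Difference (log2) of each Gimap probe set in 5 comparisons, with grey boxes from the 5th to the 95th percentile of all 16255 probe sets and a grey line at their median. The 5 genes lie above the box for ABCG2 minus mock (3.61 to 4.75), above it for GFP-negative minus mock except Gimap1, at its upper edge (0.92 to 3.09), and below it for mock replicate 1 minus the mean of replicates 2 and 3 (-4.25 to -0.64).

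The mock arrays themselves disagreed on these genes. Mock replicate 1 was below replicates 2 and 3 in 5 of 5 Gimap genes, compared with 36.4% of all probe sets, and was the lowest of all 7 arrays in 5 of 5, compared with 14.4%. Against the mean of replicates 2 and 3 it read -4.25 for Gimap4 (19.0-fold less), -2.81 for Gimap8, -1.92 for Gimap6, -0.71 for Gimap9 and -0.64 for Gimap1. A shortfall of 1 log2 or more was found in 3 of the 5 and in 1.15% of all probe sets. Replicates 2 and 3 differed from each other by -0.33 to 0.50.

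The size of these drops differed between members. Gimap4, Gimap6 and Gimap8 differed by -4.25 to -1.92 on mock replicate 1 and by -1.58 to -1.31 between GFP-positive and GFP-negative cells. Gimap1 and Gimap9 differed by -0.71 to -0.64 and by -0.90 to -0.63. Over the 7 arrays the closest members were Gimap1 with Gimap9 (root mean square difference 0.35 log2, Pearson's r 0.98). Gimap6 came next to each of them, at 0.64 (r 0.97) from Gimap1 and 0.67 (r 0.98) from Gimap9, and was farther from Gimap8 (0.72, r 0.95) and Gimap4 (0.97, r 0.93). Gimap4 and Gimap8 lay 0.68 apart and had the highest correlation (r 0.995). Gimap6 thus had the larger drops of Gimap4 and Gimap8 but lay nearer to Gimap1 and Gimap9 over all arrays. The least alike were Gimap1 with Gimap4 (1.44, r 0.83). These correlations are over 7 arrays that include both ABCG2 arrays, and are descriptive. The gene order on the chromosome runs Gimap8, Gimap9, Gimap4, Gimap6, Gimap7, Gimap1, Gimap5, Gimap3.

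Of 8373 other genes, the ones whose values ran closest to the mean of the 5 members were Dusp2 (root mean square difference 0.41), Ablim1 (0.50), Cd69 (0.56), Simc1 (0.59), Rrad (0.61), Cxcr3 (0.62), Bach2 (0.65) and AU020206 (0.66). Dusp2 encodes a MAP kinase phosphatase of activated lymphocytes, Cd69 an early activation receptor of lymphocytes, Cxcr3 a chemokine receptor of effector T and NK cells, and Bach2 a repressor of B and T cells. Ablim1 encodes an actin-binding protein and Rrad a Ras-related GTPase. Cd69 read -1.81 on mock replicate 1, -0.18 and -0.11 on the other mock arrays, 1.17 and 0 in GFP-negative and GFP-positive cells, and 1.94 and 2.50 on the ABCG2 arrays. It follows the Gimap order at every group. These genes were picked for closeness to the Gimap values on the same arrays, so a shared order largely follows from the choice.

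The closest matches were also taken gene by gene. For Gimap4 they were Klrd1 (root mean square difference 0.98), the CD94 chain of NK cell receptors, then Nlrc3, P2ry10, Cd69, Ablim1, Dusp2, Tespa1 and the costimulatory receptor gene Cd28. Cd69 was the closest to Gimap8 (0.46), and Rras2 (0.51), Dusp2 (0.53) and the kinase gene Pim2 (0.57) were the closest to Gimap6. After Cd69, Gimap8 had Ablim1, P2ry10, Dusp2, Cxcr3, Rrad, Dusp5 and Tespa1. For Gimap1 and Gimap9 the closest was Simc1 (0.24 for each). Gimap1 then had Cobll1, Zc3hav1l, A830010M20Rik, AU020206, Xrcc6, Zfp36l1 and Cish. Gimap9 then had AU020206, Zc3hav1l, Bach2, Xrcc5, Ggact, Prss2 and Dancr. The 8 nearest genes of Gimap6 also held Ablim1, Cxxc5, Simc1, A830010M20Rik (among the 8 of Gimap1) and Ggact (among the 8 of Gimap9). Ablim1, Dusp2 and Simc1 were each among the 8 nearest genes of 3 members.

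**Figure D3:**
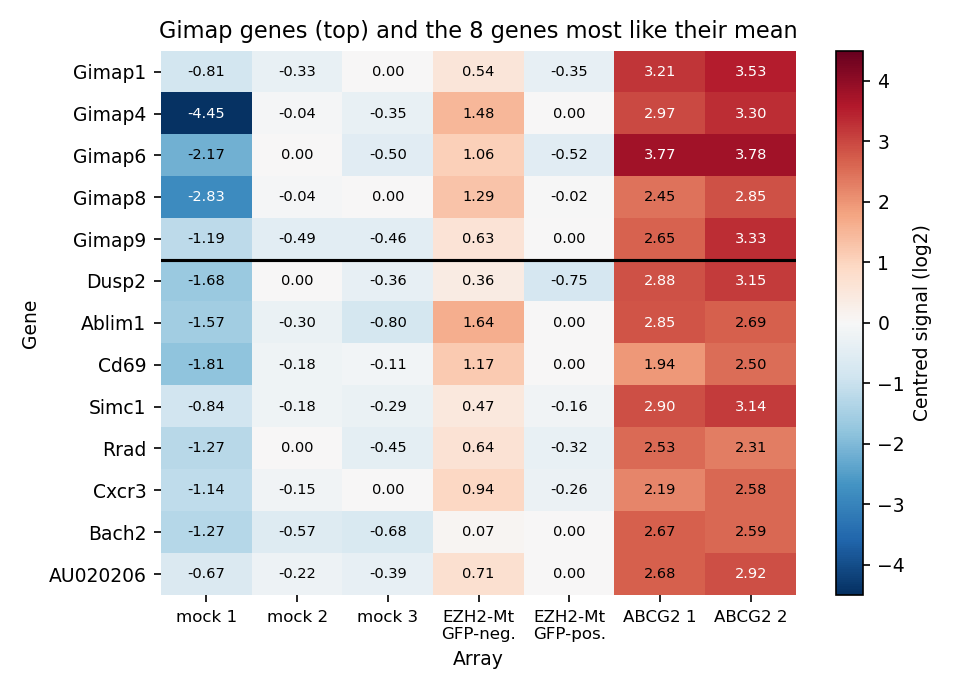
Centred signal (log2) of the 5 Gimap genes, above the line, and of the 8 genes with the smallest root mean square difference to their mean, on each of the 7 arrays. Each of these genes is lowest on mock replicate 1 and highest on an ABCG2 array.

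Lymphocyte genes fixed by name were set beside the family to show which lymphocyte transcripts the arrays carried. In bulk marrow, a change in the number of cells of a type and a change in RNA per cell cannot be told apart. Of 24 T cell genes 3 were measured. Measured here means having a probe set left after the filter for detection on 100% of the arrays. Probe sets not detected on every array are thus absent from each list. Cd3d, the CD3 delta chain of the T cell receptor complex, read -1.43, 0 and 0.21 on the mock arrays, 1.42 and 0.06 in GFP-negative and GFP-positive cells, and -1.12 and -0.89 on the ABCG2 arrays. It shared the low mock replicate 1 and the high GFP-negative value with the Gimap genes, but was at the low end in ABCG2 marrow, where the Gimap genes were at the top. For Cd3d, ABCG2 minus mock was -0.60 ± 0.47 (limma, adjusted p = 0.303), and without mock replicate 1 it fell by 1.11 ± 0.16 (limma, adjusted p = 0.00413).

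The other T cell genes measured, the costimulatory receptor genes Cd28 (2.58 ± 0.70) and Cd27 (1.34 ± 0.28), rose in ABCG2 marrow (limma, adjusted p under 0.05). The Cd28 call was lost without ABCG2 replicate 1 (limma, adjusted p = 0.0894). The Cd27 call was lost after quantile normalization (limma, adjusted p = 0.0974). All 3 T cell genes were higher in the GFP-negative fraction than on any mock array, lower in GFP-positive than in GFP-negative cells, and lowest of the mock arrays on replicate 1. Of all 8378 genes, 38.9% had a GFP-negative value above all mock arrays, 49% were lower in GFP-positive than GFP-negative cells, and 38.4% had mock replicate 1 as the lowest mock array.

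Of 17 NK and cytotoxic genes 4 were measured, and 1 rose and 1 fell in ABCG2 marrow, with limma calling 35.6% of all genes higher and 26.2% lower. Klrd1 rose by 5.01 ± 0.62, and Nkg7, a cytotoxic granule protein gene, fell by 1.53 ± 0.21, a call lost with quantile normalization (limma, adjusted p = 0.0583). The inhibitory receptor gene Klrc1 (0.50 ± 0.52) and the chemokine gene Ccl5 (1.23 ± 1.47) did not pass. Mock replicate 1 was the lowest mock array in 4 of the 4, beside 38.4% of all genes. Ccl5 read -4.63 there against 0.47 and -0.02, a shortfall like that of Gimap4. Klrc1 reached 5.18 in GFP-negative cells and 2.14 in GFP-positive cells, above the mock values of -1.82 to 0.

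Of 22 listed B cell genes 10 were measured, and 5 rose and 0 fell (limma, 35.6% higher and 26.2% lower over all genes; median 0.84, beside 0.15), led by the Ets factor gene Spib (4.84 ± 0.44) and the coactivator gene Pou2af1 (4.28 ± 0.28). In the GFP-negative fraction 4 of the 10 exceeded all mock arrays (38.9% of all genes). In GFP-positive cells 3 were lower than in GFP-negative cells (49%), and mock replicate 1 was the lowest mock array in 2 (38.4%). Spib, for example, read 0 on mock replicate 1, 1.35 and -0.18 on the other mock arrays, and -0.03 and -0.17 in the EZH2-Mt fractions. Across the T, NK and B cell lists, the calls were 8 higher and 1 lower, with the lower call changing from 0 to 2 under other settings.

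Myeloid transcripts ran against the family in ABCG2 marrow. All 12 measured neutrophil genes fell (limma; median -5.16) and all 10 measured monocyte and macrophage genes fell (median -3.79), beside 26.2% of all genes, whereas the Gimap median was 3.75. After quantile normalization 10 of the 12 neutrophil calls held, with S100a8 (adjusted p = 0.0986) and S100a9 (adjusted p = 0.0815) lost, and S100a9 was also lost when mock replicate 2 (adjusted p = 0.0541) or 3 (adjusted p = 0.0526) was left out. On mock replicate 1, where Gimap signals were lowest, the median difference from the other mock arrays was -0.31 for neutrophil genes. It was -0.10 for monocyte genes and -0.96 for erythroid genes. In these lists 10 of 12, 7 of 10 and 6 of 8 genes lay below both, beside 38.4% of all genes. In GFP-negative cells 11 of the 12 neutrophil genes (median 0.37 above the mock mean) exceeded all mock arrays, as the Gimap genes did. So did 7 of the 8 erythroid genes (median 0.62) and 1 of the 10 monocyte genes, beside 38.9% of all genes. GFP-positive cells had more neutrophil signal than GFP-negative cells (median difference 0.84, higher in 11 of 12). Erythroid signal was also higher in GFP-positive cells (median 1.33, higher in 8 of 8), where Gimap signals were lower. Of all genes, 49% were lower in GFP-positive than in GFP-negative cells. Of 8 measured erythroid genes 1 rose and 2 fell in ABCG2 marrow (35.6% and 26.2% of all genes), with a median of -0.01. The part of these other cell types in the Gimap differences was not tested.

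**Figure D4:**
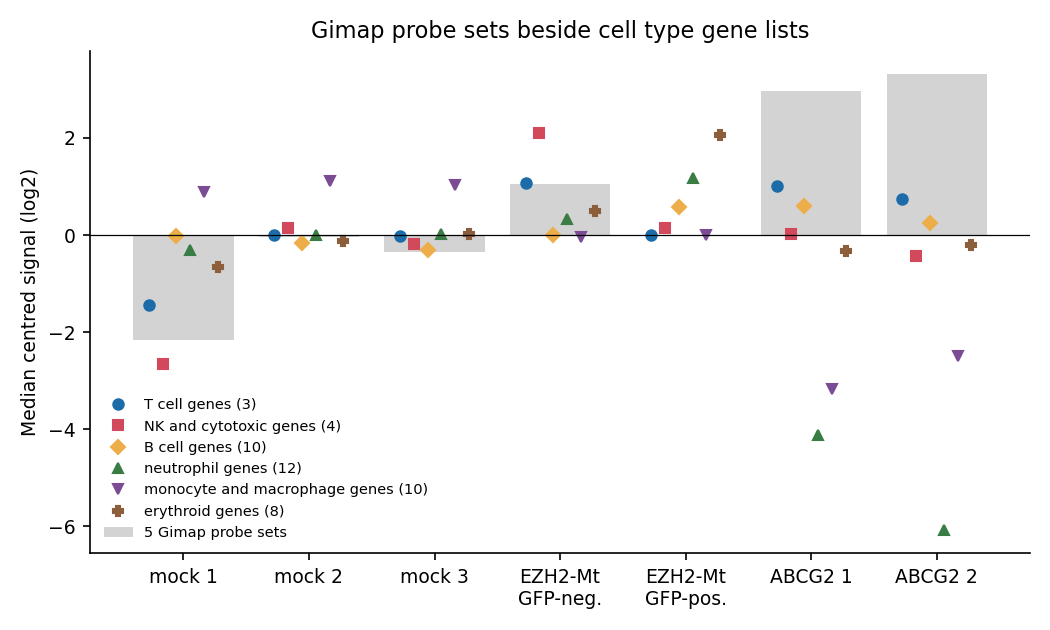
Median centred signal (log2) on each array of the 5 Gimap probe sets (grey bars) and of 6 cell type gene lists (points, number of measured genes in brackets). T cell, NK, neutrophil and erythroid medians lie on the same side of 0 as the Gimap bars on mock replicate 1 and in GFP-negative cells. In ABCG2 marrow neutrophil and monocyte medians lie far below 0.

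Genes of lymphocyte survival were called at about the share of all genes (35.6% higher and 26.2% lower). Of 13 measured lymphocyte survival and cytokine receptor genes 5 rose and 4 fell in ABCG2 marrow (limma; median near 0), and 2 of the 4 falls were left after quantile normalization. The interleukin-7 receptor gene Il7r (5.93 ± 0.34) and the survival gene Bcl2 (3.14 ± 0.25) rose most, and the survival gene Mcl1 (-1.02 ± 0.17) and the kinase gene Jak1 (-0.89 ± 0.14) fell most. Bcl2 read -1.75, -1.12 and -0.96 on the mock arrays, 0.62 in GFP-negative and -0.03 in GFP-positive cells, so mock replicate 1 was its lowest array. Over the list, mock replicate 1 was below both other mock arrays in 7 of 13 genes (38.4% of all genes), with a median difference of -0.10. Of 14 homing and quiescence genes 5 rose and 9 fell, against the same shares of all genes, with the transcription factor gene Foxo1 (2.51 ± 0.30) and the GTPase gene Rhoh (2.21 ± 0.16) highest and Arhgdib (-2.23 ± 0.16) and S1pr4 (-1.62 ± 0.17) lowest. Of the 9 falls, 3 held after quantile normalization, 4 when mock replicate 2 was left out and 5 when mock replicate 3 was.

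Of 14 measured lymphocyte transcription factor genes 5 rose and 2 fell, beside 35.6% and 26.2% of all genes, with Bcl11a (2.37 ± 0.18) and Tcf3 (2.14 ± 0.17) highest and Irf8 (-2.50 ± 0.21) and Fli1 (-1.29 ± 0.18) lowest. Among them, Runx3 rose by 1.40 ± 0.30 (limma, adjusted p under 0.05), a call lost with quantile normalization (limma, adjusted p = 0.127). Runx1 (0.16 ± 0.13) and Ets1 (0.32 ± 0.17) did not pass. With the widest-ranging probe set per gene in place of the mean, Ets1 was called higher (0.71 ± 0.18, limma, adjusted p = 0.0133). Any link of these factors to the motif letters in the Gimap windows was not tested.

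Among GTPases related by structure or by immune role, 3 of 7 measured septin genes rose and 0 fell (limma; 35.6% and 26.2% of all genes), with Septin6 highest (2.36 ± 0.15) and Septin11 next (0.82 ± 0.18, a call lost after quantile normalization, adjusted p = 0.186). Of 7 interferon-induced GTPase genes 1 rose and 2 fell, namely Gbp7 (1.62 ± 0.19), Mx1 (-1.54 ± 0.36) and Gbp3 (-0.91 ± 0.17), and the rises were 3 without ABCG2 replicate 1. Of 13 genes of autophagosomes and lysosomes, the setting in which Gimap6 acts, 0 rose and 9 fell (35.6% and 26.2% of all genes), with Atg7 (-1.88 ± 0.14) and Rab7 (-1.71 ± 0.17) lowest and Gabarapl2, whose product binds Gimap6, at -0.24 ± 0.20.

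Genes on either side of the cluster were also compared, since the family sits as a block. Of the 10 nearest measured genes, 5 on each side, limma called 7 higher and 1 lower in ABCG2 marrow, beside 35.6% and 26.2% of all genes. Of the 7, Malsu1 (0.47 ± 0.16) lost its call after quantile normalization, with the replicate block, with the widest-ranging probe set per gene, and without ABCG2 replicate 2 or mock replicate 2 or 3 (limma, adjusted p from 0.0524 to 0.508). The zinc finger gene Repin1, the nearest before the cluster, rose by 3.23 ± 0.14. The membrane protein genes Tmem176b (1.65 ± 0.13) and Tmem176a (1.31 ± 0.15), the nearest after it, rose less, and the 3 remaining differences above 1 in size were Zfp777 (1.41 ± 0.20), Zfp956 (1.31 ± 0.18) and Ccdc126 (-1.68 ± 0.19).

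The other arrays gave mixed values for the neighbours. On mock replicate 1 the 10 neighbours differed from the mean of replicates 2 and 3 by -0.28 to 0.33, while the Gimap genes differed by -4.25 to -0.64. In GFP-negative cells Tmem176b (-1.55) and Tmem176a (-1.02) lay below the mock mean, where the Gimap genes lay above it by 0.92 to 3.09. Repin1 read -0.23 in that comparison, and Zfp777 (1.11) and Zfp956 (0.91) were the neighbours with the highest values, Zfp777 within the Gimap range. Between GFP-positive and GFP-negative cells the neighbours differed by -0.75 to 0.62. Zfp777, at -0.75, was again within the Gimap range of -1.58 to -0.63, and the 9 others were above it.

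**Figure D5:**
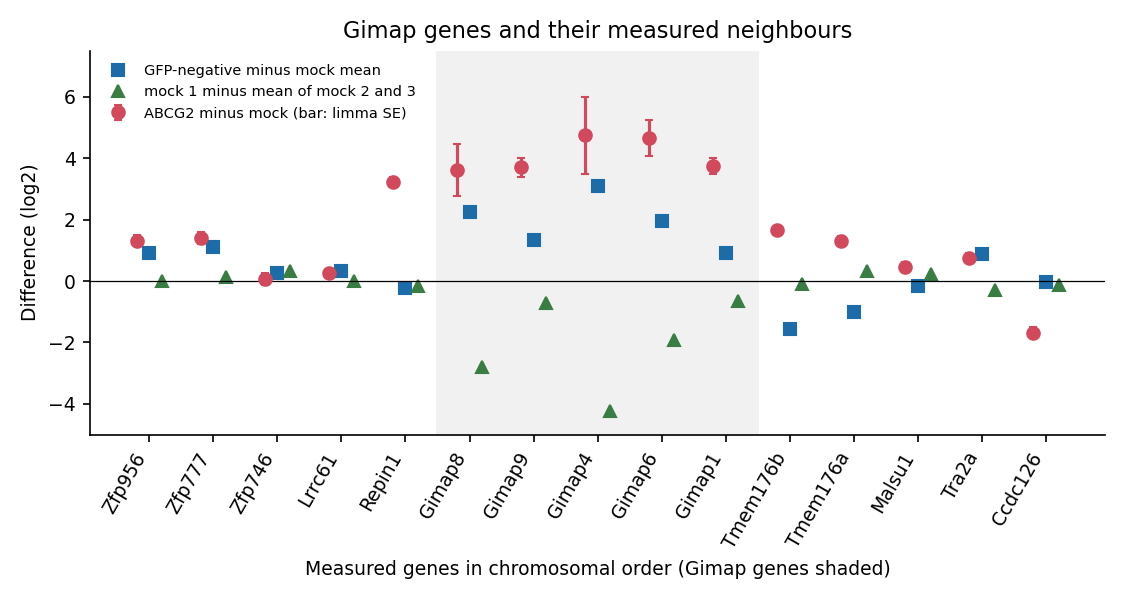
Differences (log2) of the 5 Gimap genes, shaded, and of the 5 nearest measured genes on each side in chromosomal order (spacing not to scale), with limma's SE as bars on ABCG2 minus mock. Repin1 alone among the neighbours comes near the Gimap genes in ABCG2 minus mock (3.23), and its mock replicate 1 difference is -0.16.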

How the data were processed

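Marrow RNA was hybridised to Affymetrix Mouse430_2 arrays. Per the file headers, the deposited values are normalized log signals, taken as log2, filtered to raw signals from 3 to 120534 and to detection as Present or Marginal throughout (100%). Per the submitters' processing notes MAS5 was used. Its version and the scaling between arrays: not given in the sources used here. The authors' values have a median of 0 over the 7 arrays in each probe set. The log base is not stated: the raw limits span 4.60 in base 10 and 10.6 in natural logs, and the widest probe set spans 8.70, and folds assume base 2.

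The 54 control probe sets were set apart. Of 16255 others, 14229 had 1 gene symbol, 483 several and 1543 none, and 14203 matched RefSeq (GRCm38.p6), used for names and gene order; the 6 promoter windows come from the same assembly. Genes (8378) are means over their probe sets. ABCG2 (2 arrays) and mock (3 arrays) were compared with limma 3.58.1 in R 4.3.3 (lmFit, eBayes, two-sided, Benjamini-Hochberg, adjusted p under 0.05), checked on simulated data. The simulated data had few changed probe sets and the mock spread in both groups. The check thus does not cover changes as widespread as those between ABCG2 and mock marrow. For arrays, their number limits the precision. The Gimap4 probe set carries the suffix of sets that can match several transcripts.

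Named genes were all members, the 8 genes of smallest root mean square difference, per list the 2 largest rises and 2 largest falls past the threshold (all members of lists with 5 or fewer), and 5 measured neighbours on each side. Further genes (Runx3, Runx1, Ets1, Gabarapl2, S100a8, S100a9 and values of Spib and Bcl2 by array) were chosen after their values were seen. Lists of stem and progenitor cells (5 of 10 genes higher, 4 lower) and plasma cells (2 of 6 higher, 1 lower) were also run. The endothelial list had 1 of 1 gene higher. Limma called 35.6% of all genes higher and 26.2% lower. The members and lists were chosen with earlier results of these data known.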

Additional observations from a re-analysis of the deposited data

Results flagged for a closer look

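Control RNAs outside the main measurement read higher on the sorted EZH2-Mt arrays than on any mock array. The median of the 7 hybridization control probe sets was 0.96 log2 on the GFP-negative and 2.22 on the GFP-positive array, and that of the 12 poly-A spike probe sets was 1.77 and 3.50. On the mock arrays the medians of the hybridization controls ran from -0.33 to 0.07. The poly-A medians were lower on the ABCG2 arrays (-1.09 and -1.57) than on the mock arrays (-0.03 to 0.01). The hybridization medians there (-0.16 and -0.25) lay within the mock medians. The same controls bear on each difference of the Gimap genes between EZH2-Mt or ABCG2 and mock marrow, and their part was not tested. Groups of 3 arrays or fewer were not searched for single outlying arrays.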

How the results depend on the processing

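The Gimap differences kept their sign in all alternatives run, except GFP-positive minus mock, which turned for Gimap6 (-0.27) and Gimap1 (-0.19) without mock replicate 1. Leaving out 1 array gave a family median of 3.46 to 4.08 for ABCG2 minus mock, 1.31 to 2.39 for GFP-negative minus mock and 0.003 to 0.84 for GFP-positive minus mock. With quantile normalization these medians were 3.10, 2.54 and 1.07, and both ABCG2 arrays exceeded the 5 others in 4 of 5 genes, since Gimap8 read 1.54 on ABCG2 replicate 1 and 1.55 in GFP-negative cells. Quantile normalization gave 2109 higher and 2325 lower calls over all probe sets against 5122 and 4112, and 0 lower calls (Nkg7 lost) in the T, NK and B cell lists, where leaving out 1 array gave 1 to 2. With a replicate block on the numbers in the titles, the family median was 4.08, the calls were 4178 higher and 3548 lower, and those lists had 2 lower calls. Only mock has a replicate 3, so the block takes that array out of the difference. The Gimap differences with the block are thus the same as those without mock replicate 3. Same-numbered arrays deviated together at r = 0.08 and -0.04, and the labels state no pairing. The fit of all 7 arrays in 4 groups gave the calls of the 5-array fit, because groups of 1 array add nothing to the spread. Without an ABCG2 replicate, the lone array is assumed to vary like the mock arrays. Counts by array order under other scalings were added after seeing the data.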
